A study of Mus musculus with 6 samples.

Results

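The 10 genes described here encode the proteins that detect RNA and DNA in the cytosol and pass that signal on. They were taken from the table of counts by symbol. The list was drawn up with earlier results of these data known, and makes up 10 of the 23608 rows. They are the RNA sensor genes Ddx58, Ifih1 and Dhx58, their adaptor Mavs, the DNA sensor gene Mb21d1 and its adaptor Tmem173, the kinase gene Tbk1, the Z-nucleic acid sensor gene Zbp1, and Eif2ak2 and Adar, whose products bind double-stranded RNA. All 10 symbols were found as written, and 9 genes had enough counts to be tested. Zbp1 did not.

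RNA was sequenced from AE9a leukaemia cells of the mouse, in which a shortened AML1-ETO fusion drives the disease. The cells carried the genotype Usp18+/f and UBCER-Cre, a Cre recombinase that tamoxifen activates and that a ubiquitin C promoter drives. Sick recipients of these cells were injected with oil (3 samples, genotype Usp18+/f) or with tamoxifen (3 samples, genotype Usp18+/Δ), and GFP+ Lin- c-Kit+ cells were sorted from spleen 3 days after the first injection. Both groups carried AE9a, the floxed allele and the Cre, so the effects of losing 1 copy of Usp18, of active Cre and of tamoxifen itself cannot be told apart. The labels give no strain, age or sex of the recipients, and do not say from how many leukaemia clones the cells came.

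The libraries held between 17118964 and 20741399 counts. They are named by their labels and by the numbers in the count table, oil 1, 3 and 4 and tamoxifen 1, 2 and 4. Values are in CPM, a gene's counts relative to the scaled total of its library, and a difference was called when its adjusted p in edgeR's quasi-likelihood test over 11614 genes was under 0.05. Usp18, the targeted gene, lay at 9.12, 11 and 11.2 CPM in the libraries labelled oil and at 15.1, 28.0 and 19.4 CPM in those labelled tamoxifen. Its total transcript was thus higher, not lower, under the tamoxifen label (log2 fold change 1.0, SE 0.23, edgeR adjusted p = 0.0739). The DESeq2 Wald test with all libraries called it higher (adjusted p = 0.00201). So did edgeR without tamoxifen 4 (log2 fold change 1.04, adjusted p = 0.00654). The table does not separate exons, so loss of the floxed segment could not be checked from it. On the first principal component, which took 65.1% of the variance, tamoxifen 1 and 2 lay at 37.3 and 47.5, the oil libraries at -31.1 to -23.4, and tamoxifen 4 between them at -2.99. Results that rest on tamoxifen 4 are therefore given with and without it.

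Kit, which encodes the c-Kit protein used in the sort, measured 439 to 451 CPM in oil and 447 to 781 CPM in tamoxifen (edgeR adjusted p = 0.202, and 0.000289 without tamoxifen 4). Cd34, a progenitor marker that was not part of the sort, was at 8.43 to 11.7 CPM in oil and 41.8 to 134 CPM in tamoxifen (edgeR adjusted p = 0.0232, and 2.87e-07 without tamoxifen 4). The 10 macrophage genes summed to 3.39 to 7.37 CPM in oil and 6.08 to 12 CPM in tamoxifen, with 1 of 6 tested genes at an unadjusted edgeR p under 0.05 (Vcam1, adjusted p = 0.0696, and 0.00254 without tamoxifen 4). The 6 dendritic cell genes summed to 66.5 to 74.2 CPM in oil and 55.6 to 96.7 CPM in tamoxifen, most of it Bst2, with Siglech, Clec9a and Flt3 at 0 counts throughout. The 7 T and NK cell genes summed to 1.13 to 2.57 CPM and 7.62 to 56.4 CPM, nearly all of it Nkg7 (edgeR adjusted p = 0.0410, and 9.09e-05 without tamoxifen 4), with Cd3e, Cd8a, Ncr1 and Prf1 at 0. The 4 B cell genes summed to at most 0.878 CPM and the 5 neutrophil genes to at most 0.412 CPM, with Ms4a1, Ly6g and S100a8 at 0. Of the erythroid genes, Hbb-bs ranged from 732 to 1186 CPM in oil and from 624 to 1651 CPM in tamoxifen, and Klf1 from 363 to 371 CPM and from 285 to 312 CPM. EdgeR called neither with all libraries (adjusted p = 0.538 and 0.105), while DESeq2 called Klf1 lower (adjusted p = 0.0191). Without tamoxifen 4, edgeR called Hbb-bs higher and Klf1 lower (log2 fold change 0.70 and -0.29, adjusted p = 0.00701 and 0.00941). Hbb-bt and Alas2 were not called with all libraries (edgeR adjusted p = 0.486 and 0.427). Without tamoxifen 4 they were called higher (log2 fold change 0.84 and 1.13, edgeR adjusted p = 0.0244 and 0.00673). The part of these differences in the sensor values was not tested.

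RIG-I (gene Ddx58) and MDA5 (Ifih1) are helicases that recognise viral or misplaced RNA and then assemble on MAVS, an adaptor of the outer mitochondrial membrane. LGP2 (Dhx58) belongs to the same family but lacks the signalling domains, and modulates the other two. cGAS (Mb21d1) makes the second messenger cGAMP when it binds DNA, and cGAMP activates STING (Tmem173) on the endoplasmic reticulum. MAVS and STING both engage the kinase TBK1, which phosphorylates interferon regulatory factors and so starts type I interferon transcription. PKR (Eif2ak2) halts translation when it binds double-stranded RNA, ADAR1 (Adar) edits adenosines in such RNA and limits its detection, and ZBP1 senses Z-form nucleic acids and can trigger necroptosis. Several of these genes are themselves induced by interferon, and USP18 is a brake on the interferon receptor.

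Interferon acts on its target genes through short promoter motifs, so the promoters of the sensor genes were searched for them as a description of the sequence. The window ran from 250 bases before to 50 after each transcription start (RefSeq, GRCm38.p6), and 7 of the 10 genes were in that table. The interferon-stimulated response element core, AAANNGAAA on either strand, was present in 10.6% of the 32851 promoters of the table, and the gamma-activated site TTCNNNGAA in 8.3%. Ddx58, Ifih1 and Eif2ak2 held the first motif, Eif2ak2 and 1 of the 3 starts of Adar held the second, and the windows of Mavs, Mb21d1 and Tbk1 held neither. No occurrence of one motif overlapped the other. The stretches of 30 bases are shown 5′ to 3′ along the gene, with the motif in capitals.
Ddx58, chr4:40239804-40239833, minus strand, response element core on the opposite strand, bases 3 to 11 after the start: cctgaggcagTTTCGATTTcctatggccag
Ifih1, chr2:62646206-62646235, minus strand, response element core, bases 34 to 42 after the start: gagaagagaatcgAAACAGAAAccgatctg
Eif2ak2, chr17:78882534-78882563, minus strand, response element core, bases 20 to 28 after the start: gtccgccgggAAAACGAAAcagaagagaac
Eif2ak2, chr17:78882731-78882760, minus strand, gamma-activated site, bases -178 to -170 from the start: ctgcagagctTTCCCAGAAtggaagccagg
Adar, chr3:89730730-89730759, plus strand, gamma-activated site, bases 23 to 31 after the start: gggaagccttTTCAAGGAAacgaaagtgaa
Ddx58, Ifih1 and Eif2ak2, which held the response element core, had log2 fold changes of 0.78, 0.14 and 0.10. Mavs, Mb21d1 and Tbk1, with neither motif, had -0.02, -0.28 and 0.27. Adar, with the gamma-activated site at 1 of its 3 starts, had 0.41. The search found only exact matches to the letters given, so a variant of either motif would be missed in any of these windows. A relation between motif and fold change was not tested.

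Across the 9 tested genes, Dhx58, Tmem173 and Ddx58 had the largest differences, with transcript levels 2.08, 1.99 and 1.72 times those of oil. Adar and Tbk1 were 1.33 and 1.21 times as high, Ifih1, Eif2ak2 and Mavs lay within 1.11, 1.07 and 0.99 times oil, and Mb21d1 was at 0.82 times. None of the 9 passed the edgeR threshold in either direction, beside 1.75% of all tested genes called higher and 0.267% called lower. At an unadjusted p under 0.05, 5 of the 9 were higher and 0 lower, beside 12.6% and 7.99% of all tested genes. The same 5 genes, Ddx58, Dhx58, Tmem173, Tbk1 and Adar, had every tamoxifen library above every oil library, beside 13.3% of all tested genes, and 0 of the 9 lay wholly below, beside 11.8%. The median log2 fold change of the 9 was 0.27, with 7 positive (77.8%), beside 0.00 over all 11614 genes, of which 50% were positive.

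The DESeq2 Wald test, run on the same counts, called Ddx58, Dhx58 and Tmem173 higher, 3 of 9 beside 5.73% of the genes it tested, and none of the 9 lower, beside 1.7%. Leaving out tamoxifen 4 changed the edgeR calls of these genes and of the whole table. Then Ddx58, Dhx58, Tmem173, Tbk1 and Adar were called higher, 5 of 9 beside 19.2% of all tested genes, and Mb21d1 was called lower, 1 of 9 beside 17.1%. Leaving out any other library gave no call among the 9 genes. Those fits called only 8 to 16 genes higher and 0 lower in the whole table. In bulk RNA a lower value may come from fewer cells that use a gene or from less RNA per cell, and these cannot be told apart.

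**Figure D1:**
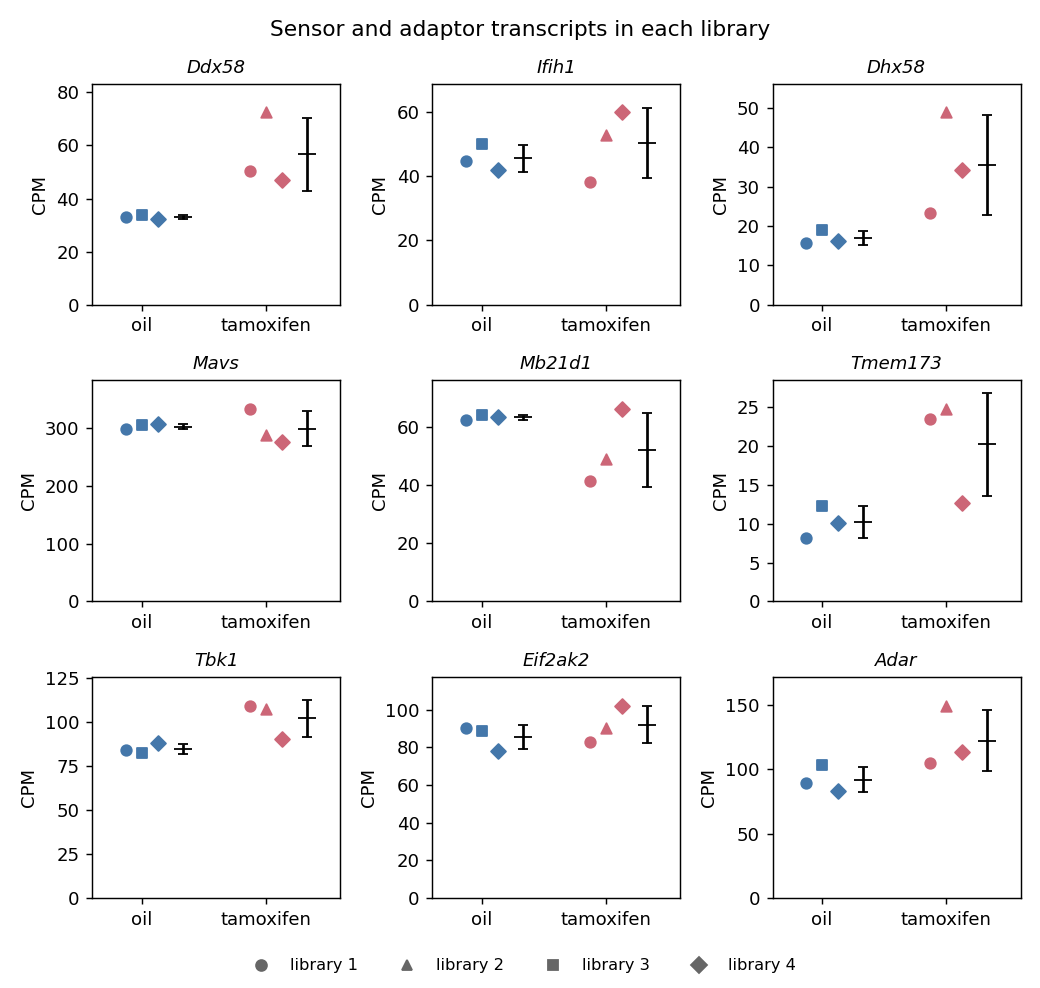
CPM (vertical axis, from 0) of the 9 tested genes in each oil (blue) and tamoxifen (red) library, with the marker shape giving the library number and the black bar the mean ± SD of 3 libraries. The tamoxifen points of Ddx58, Dhx58, Tmem173, Tbk1 and Adar all lie above the oil points, while those of the other 4 genes overlap them.

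The 3 RNA sensor genes did not move together. Dhx58 (LGP2; chromosome 11, 100694884 to 100704271, minus strand) gave 15.8, 19.0 and 16.2 CPM in oil 1, 3 and 4, against 23.4, 48.8 and 34.1 CPM in tamoxifen 1, 2 and 4. All the tamoxifen values exceeded the oil values, and tamoxifen 2 was the highest. The group means were 17.0 ± 1.77 and 35.4 ± 12.7 CPM (SD, n = 3 each). The log2 fold change was 1.06 (SE 0.25, 95% interval 0.49 to 1.63, edgeR adjusted p = 0.0763), and DESeq2 gave an adjusted p of 0.00118. The difference did not rest on tamoxifen 4: without that library it was 1.08, with an edgeR adjusted p of 0.00778. Without tamoxifen 2 it was 0.76, with an edgeR adjusted p of 0.163, in a fit that called 14 genes higher in the whole table.

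Ddx58 (RIG-I; chromosome 4, 40203773 to 40239828, minus strand) was nearly constant in oil, at 32.9, 33.7 and 32.2 CPM, and measured 50.4, 72.4 and 47.1 CPM in tamoxifen. The groups did not overlap, and tamoxifen 2 again stood highest, with tamoxifen 4 the closest to oil. Means were 32.9 ± 0.765 and 56.6 ± 13.7 CPM (SD, n = 3 each), with a log2 fold change of 0.78 (SE 0.16, interval 0.41 to 1.16, edgeR adjusted p = 0.0557). DESeq2 called it (adjusted p = 0.000893), as did edgeR without tamoxifen 4 (log2 fold change 0.90, adjusted p = 0.000941). Without tamoxifen 2 edgeR did not call it (log2 fold change 0.57, adjusted p = 0.0794), and called 14 genes higher in the whole table.

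Ifih1 (MDA5; chromosome 2, 62595798 to 62646255, minus strand) lay at 44.7, 49.9 and 41.8 CPM in oil, against 38.2, 52.8 and 59.8 CPM in tamoxifen. Its tamoxifen libraries lay on both sides of the oil libraries, with tamoxifen 1 below them and tamoxifen 2 and 4 above. The log2 fold change was 0.14 (SE 0.16, interval -0.23 to 0.52, edgeR adjusted p = 0.621), and 0.00 without tamoxifen 4. The proportions of the sensors therefore differed by library. The ratio of Dhx58 to Ifih1 counts was 0.352, 0.381 and 0.387 in oil and 0.612, 0.924 and 0.570 in tamoxifen, with no overlap. The ratio of Ddx58 to Ifih1 counts was 0.736, 0.675 and 0.769 in oil and 1.32, 1.37 and 0.788 in tamoxifen, where tamoxifen 4 was barely above the highest oil library. Neither ratio was tested.

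Mavs, the adaptor on which RIG-I and MDA5 converge (chromosome 2, 131234063 to 131248025, plus strand), was close to level. It measured 297, 304 and 307 CPM in oil and 332, 287 and 275 CPM in tamoxifen, so the tamoxifen values spread around the narrow oil range. The log2 fold change was -0.02 (SE 0.09, interval -0.24 to 0.20, edgeR adjusted p = 0.916). The interval leaves room for a difference of up to about that size in either direction.

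In the DNA-sensing branch, neither the adaptor nor the sensor was called by edgeR with all libraries. In tamoxifen 1 and 2 the adaptor was above and the sensor below every oil library, and in tamoxifen 4 both lay slightly above. Tmem173 (STING; chromosome 18, 35733679 to 35740554, minus strand) measured 8.10, 12.3 and 10.1 CPM in oil and 23.4, 24.7 and 12.7 CPM in tamoxifen. The groups did not overlap, but tamoxifen 4 lay just above oil 3. Means were 10.2 ± 2.10 and 20.2 ± 6.6 CPM (SD, n = 3 each), with a log2 fold change of 0.99 (SE 0.27, interval 0.37 to 1.61, edgeR adjusted p = 0.109), with a DESeq2 adjusted p of 0.00961. Without tamoxifen 4 the log2 fold change was 1.24 and the edgeR adjusted p 0.000573.

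Mb21d1 (cGAS; chromosome 9, 78430526 to 78443237, minus strand, named Cgas in GENCODE M21) was among the steadiest of these genes in oil, at 62.3, 64.1 and 63.2 CPM. It was at 41.3 and 49.0 CPM in tamoxifen 1 and 2, below every oil library, but at 66.0 CPM in tamoxifen 4, above every one. With all libraries the log2 fold change was -0.28 (SE 0.16, interval -0.65 to 0.09, edgeR adjusted p = 0.344, DESeq2 adjusted p = 0.373). Without tamoxifen 4 it was -0.49 (interval -0.69 to -0.28, edgeR adjusted p = 0.00322), so this call depends on that 1 library. The ratio of Tmem173 to Mb21d1 counts was 0.131, 0.192 and 0.160 in oil, 0.566 and 0.503 in tamoxifen 1 and 2, and 0.192 in tamoxifen 4, the same to 3 digits as oil 3.

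Tbk1, the kinase shared by both branches (chromosome 10, 121546455 to 121586787, minus strand), was at 84.0, 82.1 and 87.8 CPM in oil, against 109, 107 and 90.1 CPM in tamoxifen. The groups did not overlap, although tamoxifen 4 was only slightly above oil 4. Means were 84.6 ± 2.92 and 102 ± 10.5 CPM (SD, n = 3 each), with a log2 fold change of 0.27 (SE 0.10, interval 0.04 to 0.50, edgeR adjusted p = 0.197, DESeq2 adjusted p = 0.178). Without tamoxifen 4 it was 0.35 (edgeR adjusted p = 0.00439).

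Neither gene of the binders of double-stranded RNA was called with all libraries, by edgeR or DESeq2. Adar (ADAR1; chromosome 3, 89715022 to 89753446, plus strand) measured 89.3, 103 and 83.2 CPM in oil and 105, 149 and 113 CPM in tamoxifen. The groups were just apart, with tamoxifen 1 close to oil 3 and tamoxifen 2 well above the rest. The log2 fold change was 0.41 (SE 0.15, interval 0.08 to 0.75, edgeR adjusted p = 0.188, DESeq2 adjusted p = 0.111), 0.47 without tamoxifen 4 (edgeR adjusted p = 0.0240) and 0.25 without tamoxifen 2 (edgeR adjusted p = 0.439). Chrnb2, on the opposite strand, covers 16.8% of the exon bases of Adar, and since the strand setting is not given, reads there may have been assigned to either gene. Chrnb2 itself held 66 to 145 counts, against 1585.5 to 2520 counts for Adar. For Dhx58, Mb21d1 and Eif2ak2, genes on the opposite strand cover at most 4.87% of exon bases each, and those of the other members share none.

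Eif2ak2 (PKR; chromosome 17, 78852564 to 78882573, minus strand) was at 90.2, 88.4 and 78.2 CPM in oil, against 82.9, 90.3 and 102 CPM in tamoxifen. The ranges overlapped, and the log2 fold change was 0.10 (SE 0.11, interval -0.15 to 0.35, edgeR adjusted p = 0.593). The ratio of Adar to Eif2ak2 counts was 0.989, 1.16 and 1.06 in oil and 1.27, 1.65 and 1.10 in tamoxifen, so tamoxifen 4 fell inside the oil range. The difference between the 2 genes was not tested.

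Zbp1 (chromosome 2, 173206612 to 173218923, minus strand) had 0 counts in every oil library and in tamoxifen 1 and 2, and 1 count in tamoxifen 4. A count of 0 allows up to 3 counts, which is 0.145 to 0.177 CPM in these libraries, and this covers counting error only. Both groups were under that limit and no fold is given.

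**Figure D2:**
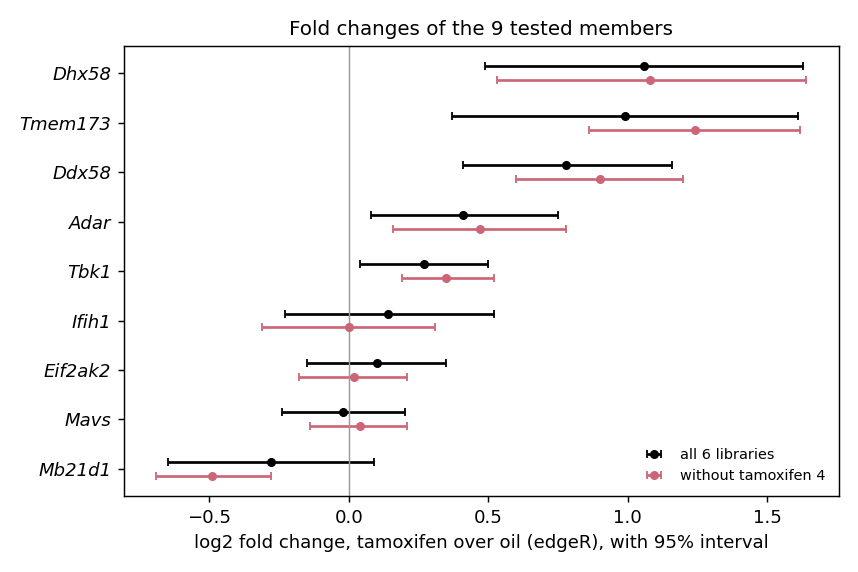
Log2 fold change of tamoxifen over oil (horizontal axis) with its 95% interval from edgeR for the 9 tested genes, in black with all 6 libraries and in red without tamoxifen 4. Dhx58, Tmem173, Ddx58, Adar and Tbk1 lie above 0 in both fits, and the interval of Mb21d1 moves from -0.65 to 0.09 to -0.69 to -0.28 when tamoxifen 4 is left out.

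The tamoxifen libraries ranked differently from gene to gene. Tamoxifen 4 was the nearest of the 3 to the oil mean for 4 genes (Ddx58, Mb21d1, Tmem173 and Tbk1), tamoxifen 1 for Dhx58, Eif2ak2 and Adar, and tamoxifen 2 for Ifih1 and Mavs. For Tmem173 the log2 ratios to the oil mean were 1.20, 1.28 and 0.32 in tamoxifen 1, 2 and 4, and for Mb21d1 they were -0.61, -0.37 and 0.06. For Dhx58 they were 0.46, 1.52 and 1.01, and for Adar 0.20, 0.70 and 0.30. The first pair thus had its smallest difference in tamoxifen 4, and the second pair in tamoxifen 1. Usp18 followed the order of the second pair, at 0.54, 1.42 and 0.90. With 3 libraries these orders are descriptions and were not tested.

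**Figure D3:**
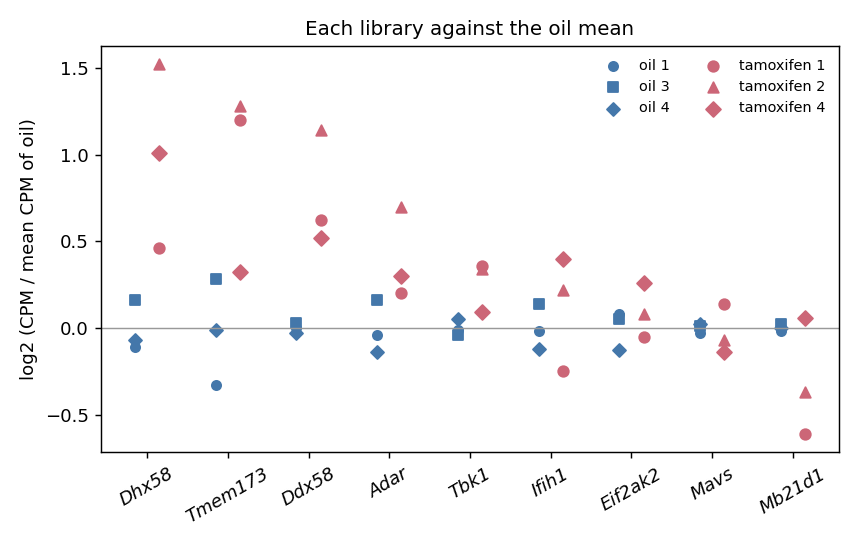
Log2 of CPM over the mean CPM of oil (vertical axis) for each tested gene, in the oil (blue) and tamoxifen (red) libraries, with the marker shape giving the library number. Tamoxifen 4 lies near the oil points for Tmem173, Tbk1 and Mb21d1 (0.32, 0.09 and 0.06) but at 1.01 for Dhx58.

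Levels of different genes were compared per kilobase of exon, as CPM per kb. The length was that of all annotated exons of a gene joined, which can exceed the length of a single transcript. The order between genes depends on that length, and other lengths were not tried. In oil, Mavs was by far the most abundant transcript at 90.4 ± 1.5 CPM per kb (SD, n = 3), followed by Tbk1 at 21.6, Eif2ak2 at 16.7, Mb21d1 at 15.3 and Adar at 11.3. The 3 RNA sensor genes lay lower, with Ifih1 at 5.57, Dhx58 at 5.19 and Ddx58 at 4.67, and Tmem173 was at 3.71, the lowest apart from Zbp1 at 0. The adaptor of the RNA sensors was thus much more abundant than the sensors, and the adaptor of the DNA sensor less abundant than cGAS. The library ranges of neighbours overlapped for Eif2ak2 with Mb21d1 and for Ifih1 with Dhx58, so these pairs are not ordered. In tamoxifen, Mavs (89.2 ± 9.03) and Tbk1 (26.1 ± 2.67) kept the first places. Every neighbouring pair from Eif2ak2 (18.0) down to Ifih1 (6.15) overlapped, so these pairs are not ordered either. Between them, the means of Dhx58, Ddx58 and Tmem173 were 10.8, 8.03 and 7.38.

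The other genes of these pathways were examined as 8 lists with 85 genes, of which 84 were in the table and 69 were tested. One of them, Ikbke, was called higher and 0 lower by edgeR, 13 were higher and 3 lower at an unadjusted p under 0.05, and 16 lay wholly above and 7 wholly below oil. Their median log2 fold change was 0.02, with 39 positive, against 0.00 over all tested genes. DESeq2 with all libraries called 6 higher and 1 lower. The 6 were Ikbke, Ddx60, Unc93b1, Mlkl, Irf5 and Enpp1 (DESeq2 adjusted p = 2.28e-07, 0.000873, 0.000535, 0.000457, 0.0419 and 0.0426). The gene called lower was Rnaseh2c (DESeq2 adjusted p = 0.0178). Without tamoxifen 4, edgeR called 20 higher and 10 lower. The shares of all tested genes given above are the background for these counts and for those of each list.

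Ikbke encodes IKKε, the close relative and partner of TBK1. It measured 13.1, 11.7 and 10.6 CPM in oil and 23.2, 24.7 and 22.2 CPM in tamoxifen, so in this gene tamoxifen 4 stood with tamoxifen 1 and 2. It rose by a log2 fold change of 0.98 (SE 0.13, edgeR adjusted p = 0.0267, DESeq2 adjusted p = 2.28e-07). With 1 library left out, the edgeR call held in 1 of 6 fits, without tamoxifen 4, with adjusted p from 0.000488 to 0.145. The other fits called 8 to 16 genes higher in the whole table. The log2 fold change stayed between 0.91 and 1.06 in all 14 alternatives, of which 9 called it.

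Among the other 8 tested genes of the TBK1 list, Irf7 and Irf5, which encode interferon regulatory factors, were at an unadjusted p under 0.05. Irf7 lay at 16.8, 27.2 and 18.5 CPM in oil, against 34.1, 101 and 38.7 CPM in tamoxifen, with tamoxifen 2 far above the rest (log2 fold change 1.48, edgeR adjusted p = 0.114, or 1.69 and 0.00561 without tamoxifen 4). Irf5 was tighter, at 15.4, 15.5 and 15.6 CPM in oil and 21.3, 21.1 and 20.2 CPM in tamoxifen (log2 fold change 0.43, edgeR adjusted p = 0.0965, or 0.45 and 0.0146 without tamoxifen 4). The list as a whole had 4 of 9 positive and a median of -0.04.

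Of the 17 regulators and relays of the RIG-I-like receptors, 4 were higher at an unadjusted edgeR p under 0.05 and 0 lower. The shares of all tested genes were 12.6% and 7.99%. None passed adjustment in edgeR with all libraries, DESeq2 called Ddx60 higher, and the median was 0.02. Ddx60, a helicase gene linked to RIG-I signalling, was scarce, at 0.225, 0.436 and 0.720 CPM in oil and 1.65, 4.13 and 2.27 CPM in tamoxifen. Its groups did not overlap, but the oil values rest on 4.5 to 13.5 counts per library (log2 fold change 2.51, edgeR adjusted p = 0.0556, or 2.61 and 0.00506 without tamoxifen 4). Rnf125 and Trim25, genes of ubiquitin ligases that act on RIG-I, had log2 fold changes of 0.44 and 0.20, and Nlrx1, of a mitochondrial regulator, 0.42. Without tamoxifen 4, Rnf125 and Nlrx1 were called by edgeR (adjusted p = 0.00443 and 0.0256) and Trim25 was not (0.0576).

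In the list of other DNA sensors, 2 of 12 tested genes were higher and 0 lower at an unadjusted edgeR p under 0.05. This stood beside 12.6% and 7.99% of all tested genes. None passed adjustment in edgeR with all libraries, and DESeq2 called Enpp1 higher. Enpp1, whose product degrades cGAMP, measured 20.0, 18.3 and 18.4 CPM in oil and 31.8, 32.8 and 21.0 CPM in tamoxifen (log2 fold change 0.59, edgeR adjusted p = 0.133, or 0.77 and 0.000656 without tamoxifen 4). As with Tmem173, tamoxifen 4 was just above oil. Lrrfip1 had a log2 fold change of 0.23, and 0.26 without tamoxifen 4 (edgeR adjusted p = 0.0186).

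Of the nuclease and clearance genes, 2 of 12 were higher and 2 lower at an unadjusted edgeR p under 0.05. This stood beside 12.6% and 7.99% of all tested genes. None passed adjustment in edgeR with all libraries, and DESeq2 called Rnaseh2c lower. Trex1, which encodes the exonuclease that degrades cytosolic DNA, was at 13.5, 16.9 and 18.0 CPM in oil, against 23.5, 32.7 and 19.1 CPM in tamoxifen (log2 fold change 0.64, edgeR adjusted p = 0.166, or 0.80 and 0.00542 without tamoxifen 4). Rnaseh2c, of a ribonuclease H2 subunit, was at 50.3, 48.5 and 50 CPM in oil, against 39.7, 25.6 and 34.4 CPM in tamoxifen (log2 fold change -0.58, edgeR adjusted p = 0.101, or -0.60 and 0.0144 without tamoxifen 4). Neither gene's groups overlapped. Samhd1, of a nucleotide hydrolase, had a log2 fold change of 0.37 and Rnaseh2a, of the catalytic ribonuclease H2 subunit, -0.25, and both were called by edgeR without tamoxifen 4 (adjusted p = 0.00495 and 0.0198).

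Of the endosomal sensors, Tlr3, Tlr7, Tlr8 and Tlr13 had 7 counts or fewer in every library and Tlr9 had 0, so none was tested. Unc93b1, which encodes the chaperone that brings these receptors to endosomes, measured 17.9, 16.7 and 17.9 CPM in oil and 39.6, 44.8 and 23.3 CPM in tamoxifen (log2 fold change 1.04, edgeR adjusted p = 0.0624, or 1.27 and 5.2e-05 without tamoxifen 4). Among the partners of ZBP1, Mlkl, of the executor of necroptosis, was at 30, 23.4 and 27.2 CPM in oil, against 48.7, 75.5 and 40.4 CPM in tamoxifen (log2 fold change 1.03, edgeR adjusted p = 0.0641, or 1.21 and 0.000655 without tamoxifen 4). Fadd, of a death receptor adaptor, had a log2 fold change of -0.29, and -0.39 without tamoxifen 4 (edgeR adjusted p = 0.0105). Both Unc93b1 and Mlkl lay wholly above oil, and DESeq2 called both higher with all libraries. The list of eIF2α kinases and their stress output, which PKR shares, had 9 tested genes. At an unadjusted edgeR p under 0.05, 0 of 9 were higher or lower, beside 12.6% and 7.99% of all tested genes. DESeq2 called none of them. Without tamoxifen 4, edgeR called 2 higher and 3 lower, beside 19.2% and 17.1% of all tested genes. The 7 interferon genes Ifnb1, Ifna1, Ifna2, Ifna4, Ifna5, Ifnl2 and Ifnl3 had 0 counts in all 6 libraries, which allows up to the 3 counts given for Zbp1.

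**Figure D4:**
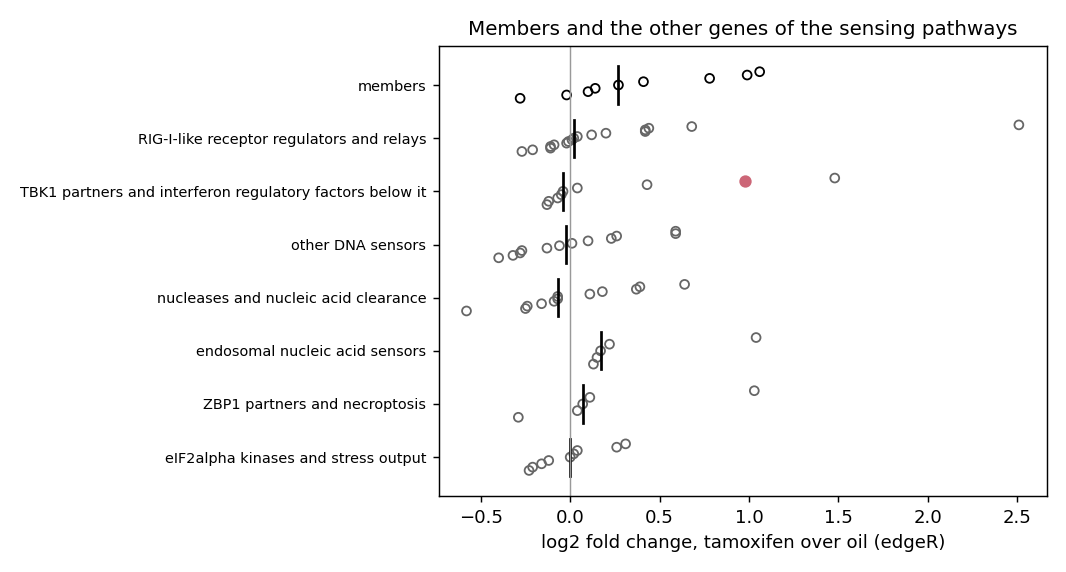
Log2 fold change of tamoxifen over oil (horizontal axis) for the 9 tested members and for each tested gene of the 7 pathway lists with tested genes, with the vertical bar at the median of a list and a filled red point for the 1 gene called by edgeR. The filled point is Ikbke at 0.98, and the medians of the 7 lists run from -0.07 to 0.17, beside 0.27 for the members.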

How the data were processed

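Per the labels, RNA from 3 biological replicates of each group was extracted with Trizol, and the libraries were made with a Nextera kit. The deposited values are estimated counts, 1 row per gene symbol, left unscaled by the authors. The submitters' processing notes name STAR, DESeq2 and the build mm10. The counting program, strand setting and annotation are not given in the sources used here. All per-sample columns were used, and 26 rows whose symbol had become a date were not named.

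Counts were rounded and analysed in R 4.3.3 with edgeR 4.0.16 (filterByExpr, TMM, quasi-likelihood F test, Benjamini-Hochberg adjustment over all tested genes), with DESeq2 1.42.0 and limma 3.58.1 voom as alternatives, besides other normalizations and filters, unrounded counts, a replicate block and each library left out. CPM are relative to the TMM-scaled total of tested genes. Standard errors and 95% intervals came from the F statistics. The scripts were tested on simulated data. The titles number the libraries 1, 2 and 4 (oil) and 1, 3 and 4 (tamoxifen), unlike the columns used here, and the columns call the oil group vehicle. Coordinates are from GENCODE M21 (GRCm38). No 2 replicates agreed within sampling noise. The members and lists were chosen with earlier results of these data known. Besides the members and Usp18, at most 4 genes per pathway list are named by fold change. They have the largest absolute log2 fold change among those at an unadjusted edgeR p under 0.05. Also named are genes at or near 0 counts, cell type markers, Chrnb2 for its overlap with Adar, and the 5 nearest patterns. One erythroid marker is not reported here.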

Additional observations from a re-analysis of the deposited data

How the results depend on the processing

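Of the 9 tested genes, edgeR called 0 higher and 0 lower with all libraries. The number called higher was 1 with upper-quartile normalization, 3 with DESeq2, 2 with no low-count filter and 1 with the replicate block. In the whole table these fits called 231, 743, 372 and 215 genes higher. With 1 library left out, 0 to 5 of the 9 were called higher and 0 to 1 lower. Beside these stood 8 to 2278 genes called higher and 0 to 2024 lower in the whole table. Ddx58 was called with upper-quartile normalization (log2 fold change 0.80), DESeq2 (0.78) and no filter (0.77), Dhx58 with DESeq2 (1.06), no filter (1.05) and the replicate block (0.83, edgeR adjusted p = 0.0487), and Tmem173 with DESeq2 (0.99). With 1 library left out the log2 fold change ranged from 0.57 to 0.90 for Ddx58, 0.76 to 1.29 for Dhx58, 0.83 to 1.24 for Tmem173, 0.22 to 0.35 for Tbk1, 0.25 to 0.51 for Adar, -0.49 to -0.14 for Mb21d1 and -0.11 to 0.04 for Mavs. Mavs had a log2 fold change of 0.00 with the replicate block, on the other side of 0 from its value without it. The replicate block groups libraries by their number, and oil 3 and tamoxifen 2 have no counterpart in the other group. The fold changes of that fit therefore come from oil 1 and 4 and tamoxifen 1 and 4. Every call among the 9 in the fits with 1 library left out came without tamoxifen 4. The other fits with 1 library left out called 8 to 16 genes higher and 0 lower in the whole table. RLE scaling, limma-voom, a minimum mean of 50 counts and unrounded counts changed no call among the 9. Over all the alternatives the adjusted p ranged from 0.000893 to 0.249 for Ddx58, 0.00118 to 0.297 for Dhx58, 0.000573 to 0.364 for Tmem173 and 0.00322 to 0.768 for Mb21d1.

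Over all genes, 203 were called higher and 31 lower. These counts were 743 and 221 with DESeq2, 48 and 6 with limma-voom, and 231 and 29 with upper-quartile normalization. They were 215 and 26 with the replicate block, 372 and 61 with no filter, and 120 and 17 under a minimum mean of 50 counts. With 1 library left out they were 8 to 2278 and 0 to 2024. Of the other pathway genes, 1 was called higher and 0 lower. The counts were 6 and 1 with DESeq2, 4 higher with no filter, 2 higher with the replicate block, and 0 to 20 higher and 0 to 10 lower with 1 library left out. The cause of these changes was not tested. Same-numbered libraries did not deviate together (correlations -0.13 and 0.06). These correlations cannot show whether libraries of the same number were handled as a pair. The replicate block left 1 residual degree of freedom in place of 4. Zbp1, the endosomal receptors and the interferon genes had 7 counts or fewer in every library. Where they had 0, the depth bounds the level only at the limit that a count of 0 allows. There, low expression cannot be told apart from none. Tlr3 reached 4 counts in tamoxifen 1, Tlr13 7 in tamoxifen 2 and Tlr8 3.5 in tamoxifen 4, above the 3 counts of that limit.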

Other observations

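The 5 genes outside the sensor group whose pattern over the 6 libraries was nearest to the mean of its 9 tested members were Hipk3, Nfix, Dram2, 0610010F05Rik and Irf2bpl. Likeness was the root mean square difference of log2 CPM, each gene centred on its own mean, and it was 0.04 for Hipk3, 0.05 for Nfix and Dram2, and 0.06 for the other two. The mean profile of the members was -0.23, -0.09 and -0.22 in oil 1, 3 and 4, against 0.05, 0.36 and 0.13 in tamoxifen 1, 2 and 4. These genes were chosen for this pattern, so their values are a description and were not tested.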
